A study of Mus musculus with 33 samples.

Results

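The 10 genes described here belong to the bone morphogenetic protein (BMP) pathway: the ligands *Bmp2*, *Bmp4* and *Bmp7*, the inhibitor of DNA binding genes *Id1*, *Id2*, *Id3* and *Id4*, the inhibitory SMAD genes *Smad6* and *Smad7*, and the homeobox gene *Msx2*. They were chosen by name with earlier results of these data known, and all 10 were among the 16336 genes of the deposited table. A transcript level scaled to gene length and to the library's total (TPM) was available for each of them in 33 poly-A RNA-seq libraries of mouse embryonic stem cells (ESCs) and embryoid bodies (EBs).

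E14Tg2a is a wild-type ESC line of strain 129/Ola. ΔK9.1 and ΔK9.2 were derived from it, and each is 1 clone in which Crispr/Cas9 removed, on both alleles, the stretch upstream of *Nanog* that carries H3K9me3. Undifferentiated cells were grown on gelatine with serum and LIF (day 0), and EBs were collected after 4, 6 and 8 days in serum without LIF, which all 3 lines received alike. Per the methods, aggregates floated until day 4 and were then replated on gelatine, so days 6 and 8 are adherent outgrowths, and differences between day 4 and later days cannot be told apart from that change of culture. Each line had 3 libraries on days 0, 4 and 8, and the labelled replicates 2 and 3 on day 6. The methods describe 3 independent assays with the lines differentiated side by side, without saying which label number is which assay. A fit with a block for the number (replicate block) is quoted where it changes a call.

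BMP ligands are secreted dimers that bind type I and type II serine/threonine kinase receptors, which phosphorylate SMAD1, SMAD5 and SMAD9. These SMADs join SMAD4 in the nucleus and activate genes such as the *Id* genes, whose products lack a DNA-binding domain and sequester the E proteins that bHLH activators need, and *Smad6* and *Smad7*, whose products feed back on the receptors. In ESC biology, BMP or serum acting through ID proteins is known to hold back neural differentiation in the presence of LIF, and BMP4 is a known inducer of mesoderm and extra-embryonic fates once pluripotency is left.

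TPM keeps no read depth, and the methods give 1 approximate read number for all libraries, so the depth of each one is not known. The 33 libraries summed to between 994284 and 998266 TPM over the listed genes, with 12903 to 13905 genes at 1 TPM or more. *Nanog* was present in every library. On day 0 it was 344 ± 21.2 TPM for E14Tg2a, 468 ± 16.2 TPM for ΔK9.1 and 426 ± 13.4 TPM for ΔK9.2 (mean ± SD, n = 3 each). The deletion lies outside its transcript, so this level is no test of the genotype. Several libraries stood apart. In ΔK9.1 on day 8, replicate 3 had a summed level of 8 pluripotency markers of 1504 TPM, against 698 and 745 in its other libraries. On day 6, its replicate 3 had a summed level of 10 mesoderm markers of 66.5 TPM, against 497 in replicate 2. Replicate 1 of E14Tg2a had a summed level of 11 extra-embryonic endoderm markers of 116 TPM on day 0, against 9.40 and 13.8, and of 811 TPM on day 4, against 104 and 358. Replicate 1 of ΔK9.2 had 59.8 against 7.90 and 7.52 on day 0 and 202 against 22.6 and 23.1 on day 4.

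The genes lie on 7 chromosomes of mm10. *Bmp2* (chr2:133552159-133562885), *Id1* (chr2:152736251-152737410) and *Bmp7* (chr2:172868012-172940321) share chromosome 2, and *Id4* (chr13:48261228-48266026) and *Msx2* (chr13:53466884-53473074) share chromosome 13. *Bmp4* lies at chr14:46383520-46390669, *Id2* at chr12:25093799-25097140, *Id3* at chr4:136143497-136145755 and *Smad6* at chr9:63953076-64022059. RefSeq promoter windows (GRCm38.p6, the 250 bases before the transcript start) were matched for 6 of the 10 genes. Windows are shown here for the most abundant ligand of undifferentiated cells, for the ID gene that did not rise in EBs and for the inhibitory SMAD whose rise differed between the lines. They lie at chr14:46390670-46390919 (minus strand), chr13:48260866-48261115 (plus strand) and chr9:64022060-64022309 (minus strand), outside the annotated genes, and capitals mark GGCGCC, the GC-rich core known from BMP response elements.
Bmp4: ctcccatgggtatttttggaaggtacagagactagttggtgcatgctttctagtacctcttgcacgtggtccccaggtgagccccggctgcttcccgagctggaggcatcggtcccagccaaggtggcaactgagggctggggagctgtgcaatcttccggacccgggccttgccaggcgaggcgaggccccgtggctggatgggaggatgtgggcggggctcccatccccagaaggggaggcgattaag
Id4: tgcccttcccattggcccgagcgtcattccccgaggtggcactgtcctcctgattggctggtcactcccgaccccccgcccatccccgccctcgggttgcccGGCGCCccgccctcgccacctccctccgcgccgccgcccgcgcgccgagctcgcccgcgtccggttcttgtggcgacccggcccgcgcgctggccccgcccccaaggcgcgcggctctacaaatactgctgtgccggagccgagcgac
Smad6: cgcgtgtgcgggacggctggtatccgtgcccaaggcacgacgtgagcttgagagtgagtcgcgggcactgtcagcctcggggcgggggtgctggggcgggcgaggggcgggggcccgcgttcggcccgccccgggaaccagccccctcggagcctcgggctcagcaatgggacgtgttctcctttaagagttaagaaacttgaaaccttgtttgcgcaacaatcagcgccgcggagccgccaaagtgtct

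The *Id4* window held 1 GGCGCC, beginning 148 bases before the start, and the *Bmp4* and *Smad6* windows held none. Of the other matched windows, that of *Id2* held 1 and those of *Id3* and *Msx2* held none; these 3 overlap the annotated gene and are not printed. GGCGCC was found in 9.59% of all 32851 windows of this length. GTCTAGAC, the palindromic SMAD-binding element, was found in 0.167% of them, and CAGACA, on either strand, in 17.1%; neither was in any of the 6 windows. None of the 3 motifs contains another. These matches describe letters in a window and say nothing of SMAD binding.

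Over 8 days of EB differentiation, 8 of the 10 genes rose in E14Tg2a (limma, adjusted p below 0.05 and a log2 fold change above 1), where 15.9% of all tested genes rose. *Id4* and *Smad7* were the 2 that did not. The median log2 fold change of the 10 genes was 2.33, and that of all tested genes 0.051. Because the 10 genes were chosen with earlier results of these data known, these shares and medians are a description only. All fold changes are of log2(TPM + 1), which understates the change of genes with low levels. In bulk libraries such as these, fewer cells of a type and less RNA per cell cannot be told apart.

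By day 4 none of the 10 genes had been called higher than on day 0 in any line (limma), while *Bmp4* and *Smad7* had fallen in all 3. *Bmp2* in E14Tg2a came closest, with 0.92 (adjusted p = 0.0309), short of the fold threshold. It was called with a pseudocount of 0.1 TPM (2.41, adjusted p = 0.00980), without day 0 replicate 1 (1.15, adjusted p = 0.0151) and without day 4 replicate 2 (1.27, adjusted p = 0.00530). At an unadjusted p below 0.05, in either direction, 4 genes passed in E14Tg2a (*Bmp2*, *Bmp4*, *Id3* and *Smad7*), 4 in ΔK9.1 (*Bmp4*, *Bmp7*, *Smad6* and *Smad7*) and 3 in ΔK9.2 (*Bmp4*, *Id2* and *Smad7*). Over all 16336 genes, 6084, 6592 and 6892 passed at that level in the same lines. Called increases against day 0 made up 3.67%, 1.37% and 2.53% of all tested genes in E14Tg2a, ΔK9.1 and ΔK9.2 on day 4, and called decreases 4.07%, 4.02% and 5.09%. Rescaling each library by its median ratio to the other libraries moved the median change of all genes to day 4 by 0.069, 0.25 and 0.18 in the 3 lines. Increases then made up 53.7%, 49.7% and 51.5% of the calls, against 47.4%, 25.5% and 33.3% as deposited, and *Id2* in ΔK9.2 was called at 1.04, against 0.86 before. *Id2* in ΔK9.2 was also called without day 0 replicate 3 (1.05) or day 4 replicate 1 (1.09). On day 6, 7 of the 10 had risen in E14Tg2a (all genes, 8.95%), 4 in ΔK9.1 (4.95%) and 5 in ΔK9.2 (7%). Without ΔK9.1 replicate 3 of day 6, *Id2* was called in ΔK9.1 as well (0.88 with it, adjusted p = 0.0285). On day 8 the counts were 8, 7 (10.9%) and 8 (11%).

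**Figure D1:**
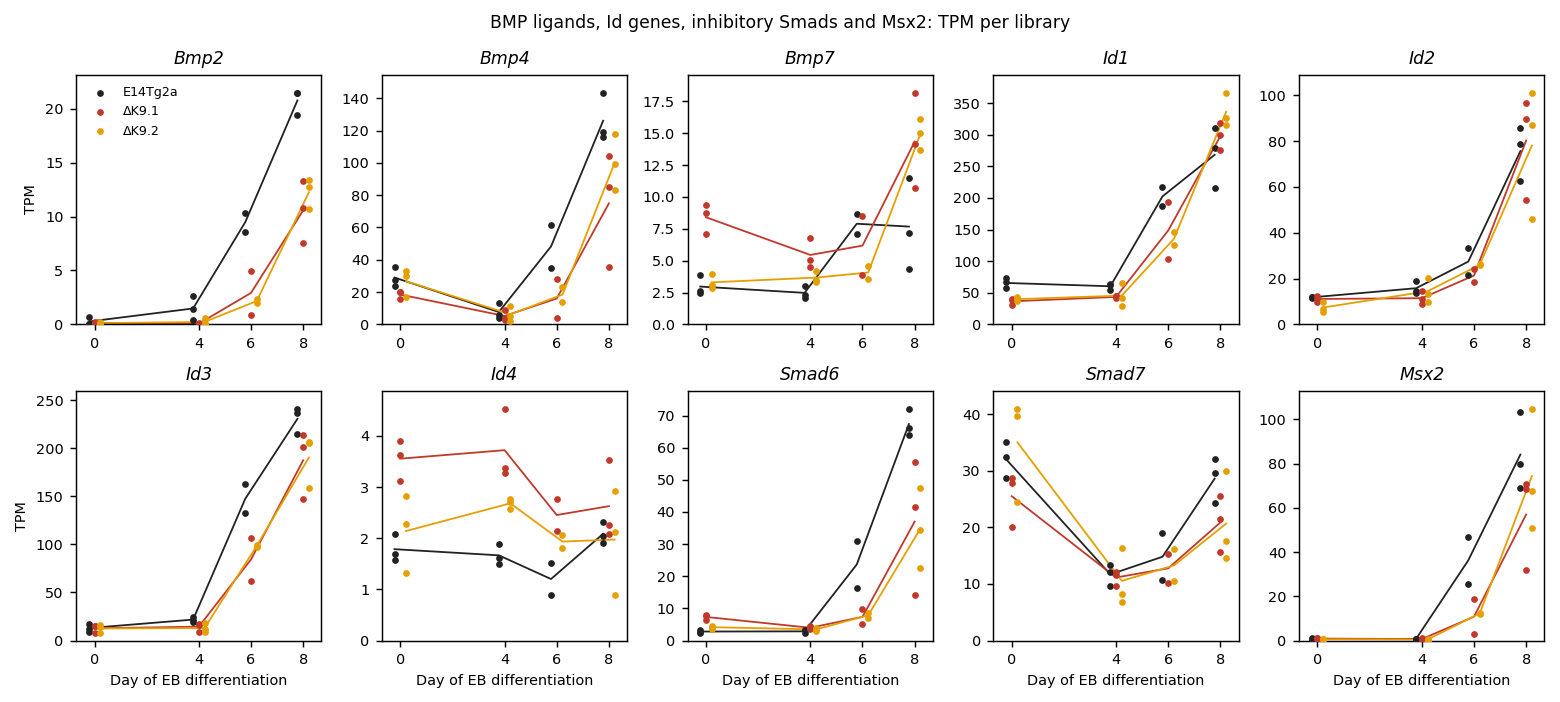
TPM (linear axis) of each of the 10 genes by day of EB differentiation, 1 point per library and a line through the means of E14Tg2a (black), ΔK9.1 (red) and ΔK9.2 (orange). *Bmp2*, *Bmp4*, *Id1*, *Id2*, *Id3*, *Smad6* and *Msx2* are highest on day 8 in every line, and all E14Tg2a libraries lie above all clone libraries for *Bmp2* and *Smad6* on days 6 and 8.

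Between the clones and E14Tg2a, none of the 10 genes was called on day 0, 1 at day 4, 3 at day 6 and 3 at day 8. The corresponding shares of all tested genes were 0.0758%, 2.85%, 3.83% and 19.7%. On day 0 a call needed an adjusted p below 0.05 and a log2 fold change beyond 0.3 in both clones; at an unadjusted p below 0.05, 2 of the 8 genes tested (*Id1* and *Smad6*) and 982 of 14504 genes passed in both clones. *Bmp2* and *Msx2* were below the 1 TPM minimum on day 0 and were not tested there. On the other days a call needed an adjusted p below 0.05 for the mean of the clones. The median log2 fold change of the 10 genes, clones against E14Tg2a, was -0.25, -0.65 and -0.36 on days 4, 6 and 8, and that of all tested genes -0.064, -0.028 and -0.0035. Several of these calls depended on the fit. With only the libraries of each comparison fitted, none was called on days 4 and 6 and 1 on day 8 (*Bmp2*). With a pseudocount of 0.1 TPM, 1 was called on day 6 (*Smad6*) and 2 on day 8 (*Bmp7* and *Smad6*). With the replicate block, 1 was called on day 0 (*Id1*), 2 were on day 4 (*Id4* added), 4 on day 6 (*Bmp4* added) and 4 on day 8 (*Smad7* added), while the counts over all genes went from 11, 465, 626 and 3217 to 145, 816, 1017 and 4088. Both clones are compared with the same E14Tg2a libraries, so their values are not independent of each other.

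*Bmp2*, a ligand known for its part in heart and extra-embryonic development, rose from near 0 and was lower in the clones throughout EB differentiation. E14Tg2a libraries had 0.701, 0.0772 and 0 TPM on day 0, 2.59, 0.422 and 1.41 at day 4, 10.3 and 8.61 at day 6 and 21.5, 21.4 and 19.4 at day 8. ΔK9.1 had 0.0109, 0.152 and 0.0329 TPM at day 4, 4.96 and 0.870 at day 6 and 10.8, 13.3 and 7.55 at day 8. ΔK9.2 had 0.551, 0.108 and 0.0324, 1.96 and 2.36, and 12.7, 13.4 and 10.7 TPM on the same days. The groups overlapped on day 4, and every clone library was below every E14Tg2a library on days 6 and 8. Against day 0, the day 8 log2 fold change was 4.15 (SE 0.31, adjusted p = 5.65e-11) for E14Tg2a, 3.31 for ΔK9.1 and 3.58 for ΔK9.2.

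Clones against E14Tg2a, *Bmp2* differed by -1.02 (SE 0.27, adjusted p = 0.0375) on day 4, by -1.69 (SE 0.33, adjusted p = 0.00364) at day 6 and by -0.83 (SE 0.27, adjusted p = 0.0312) at day 8. These calls rest on few libraries. The day 4 call was lost without E14Tg2a replicate 1 or 3, ΔK9.1 replicate 1 or 3 or ΔK9.2 replicate 2 or 3 (adjusted p 0.0620 to 0.187), and the value was -0.71 without E14Tg2a replicate 1. That library and ΔK9.2 replicate 1, the highest of their groups in *Bmp2* on day 4, also had the highest extra-embryonic endoderm sums of their groups, whose part in the *Bmp2* difference was not tested. On day 6 it was lost without E14Tg2a replicate 2 (-1.57, adjusted p = 0.121). On day 8 it was lost without any 1 of the E14Tg2a libraries or replicate 3 of either clone (-0.88 to -0.73, adjusted p 0.0528 to 0.128).

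*Bmp4*, the known inducer of mesoderm and of extra-embryonic fates, had the highest TPM of the 3 ligands in every library of days 0 and 8. It made up 89.6% ± 3.42 (SD, n = 3) of the summed TPM of the 3 ligands in E14Tg2a on day 0 and 81.5% ± 3.45 on day 8. Its course was a dip followed by a rise. E14Tg2a had 23.9, 27.5 and 35.6 TPM on day 0, 6.08, 13.1 and 3.65 at day 4, 61.6 and 34.9 at day 6 and 116, 143 and 119 at day 8. ΔK9.1 had 19.9, 19.8 and 15.6, then 3.74, 8.80 and 3.00, then 28.0 and 4.06, and lastly 85.0, 105 and 35.3 TPM. ΔK9.2 had 30.1, 33.2 and 16.8, then 11.1, 5.19 and 2.28, then 13.7 and 23.1, and lastly 83.3, 99.2 and 118 TPM. Day 4 was below day 0 in every library of every line.

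The day 4 fall of *Bmp4* was -1.93 (SE 0.52, adjusted p = 0.00708) for E14Tg2a, -1.76 (SE 0.52, adjusted p = 0.0126) for ΔK9.1 and -2.09 (SE 0.52, adjusted p = 0.00321) for ΔK9.2. It missed the threshold without day 4 replicate 3 in E14Tg2a (-1.57, adjusted p = 0.0548) and in ΔK9.1 (-1.51, adjusted p = 0.0697). By day 8 the log2 fold change against day 0 was 2.1 (SE 0.52, adjusted p = 0.00119) for E14Tg2a, 1.84 (SE 0.52, adjusted p = 0.00470) for ΔK9.1 and 1.91 (SE 0.52, adjusted p = 0.00328) for ΔK9.2. On day 6 the 4 clone libraries, 4.06 to 28.0 TPM, were all below both E14Tg2a libraries, and the difference of -1.65 (SE 0.55, adjusted p = 0.0952) did not pass, but did with the replicate block (adjusted p = 0.0370). Without ΔK9.1 replicate 2 it was -2.28 (adjusted p = 0.00638), and without ΔK9.1 replicate 3 -1.02 (adjusted p = 0.437). On day 8 the difference was -0.61 (SE 0.45, adjusted p = 0.381), and the lowest library was ΔK9.1 replicate 3. This difference ran from -0.76 to -0.37 when each library was left out in turn.

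*Bmp4* lies 3.609 Mb before a stretch of chromosome 14 (50 to 80 Mb) in which most genes were lower in both clones already on day 0. Of its 168 genes at 5 TPM or more in E14Tg2a, 159 were lower in both, with median log2 fold changes of -0.67 for ΔK9.1 and -0.56 for ΔK9.2. For the 17 such genes between *Bmp4* and that stretch the medians were -0.10 and 0.036 on day 0, with 7 of them lower in both clones. On later days a larger share of the genes at this level was lower in both, 13 of 16 at day 4, 16 of 18 at day 6 and 15 of 20 at day 8. Among all genes with a position the share also rose, from 28.0% on day 0 to 52.9%, 44.4% and 46.8% on those days. The medians of the genes between *Bmp4* and the stretch, for ΔK9.1 and ΔK9.2, were -0.36 and -0.38 on day 6, and -0.47 and -0.38 on day 8. *Bmp4* itself was -0.61 for ΔK9.1 and -0.15 for ΔK9.2 on day 0 (adjusted p = 0.111 and 0.875). The part of this stretch and of these neighbours in the later *Bmp4* values was not tested.

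*Bmp7*, a ligand known from kidney and eye development, was higher in the clones on day 8, when *Bmp2* was lower and *Bmp4* was not called. E14Tg2a had 2.60, 3.86 and 2.44 TPM on day 0, 3.04, 2.06 and 2.31 at day 4, 8.69 and 7.11 at day 6 and 11.5, 4.37 and 7.13 at day 8. ΔK9.1 had 8.76, 9.35 and 7.12 TPM at day 0, 4.5, 5.06 and 6.79 at day 4, 8.51 and 3.85 at day 6 and 18.2, 14.2 and 10.7 at day 8. ΔK9.2 had 2.82, 3.97 and 3.11, then 4.22, 3.34 and 3.45, then 3.59 and 4.55, and lastly 15, 16.1 and 13.7 TPM. On day 8, 5 of the 6 clone libraries were above all E14Tg2a libraries, and the difference was 0.92 (SE 0.22, adjusted p = 0.00411). Without E14Tg2a replicate 2, the lowest library, it was 0.62 and the call was lost (adjusted p = 0.0987). On days 4 and 6 the differences were 0.66 and -0.60, of opposite sign, and did not pass (limma, adjusted p = 0.113 and 0.241).

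The clones differed from each other in *Bmp7* on day 0. All ΔK9.1 libraries were above all ΔK9.2 and E14Tg2a libraries, and ΔK9.1 against E14Tg2a was 1.26 (SE 0.18, adjusted p = 0.00410), where 15.5% of all tested genes were called for ΔK9.1 alone. ΔK9.2 against ΔK9.1 was -1.13 (SE 0.18, adjusted p = 0.0280), the only 1 of the 8 tested genes called between the clones on that day (1.9% of all tested genes). That call was lost without any 1 of the 6 libraries (-1.24 to -1.05, adjusted p 0.0562 to 0.135). At an unadjusted p below 0.05, 4 of the 8 (*Bmp7*, *Id2*, *Id4* and *Smad6*) and 2926 of 14504 genes passed between the clones. *Smad6* came close to a call there, with ΔK9.2 against ΔK9.1 at -0.69 (limma, adjusted p = 0.0501). *Bmp7* made up 31.1% ± 0.852 (SD, n = 3) of the ligand sum in ΔK9.1, against 9.42% ± 2.94 in E14Tg2a and 11.6% ± 3.61 in ΔK9.2. In E14Tg2a the day 8 rise over day 0 was 1.06 (SE 0.25, adjusted p = 8.12e-04), and it no longer exceeded 1 without day 0 replicate 1 or 3 (1.0 and 0.97) or day 8 replicate 1 (0.75), nor after median ratio rescaling (0.99).

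*Id1*, the most abundant of the 4 ID genes in undifferentiated cells, had lower values in all clone libraries on day 0 and rose further in the clones by day 8. On day 0 E14Tg2a had 66.3, 73.2 and 56.9 TPM, ΔK9.1 had 30.5, 39.6 and 39.1 TPM and ΔK9.2 had 37.1, 39.9 and 42.7 TPM. ΔK9.1 differed from E14Tg2a by -0.83 (SE 0.13, adjusted p = 0.00451) and ΔK9.2 by -0.70 (SE 0.13, adjusted p = 0.0989), which passed with the replicate block (adjusted p = 0.0419). On day 4 the clone libraries ran from 29.1 to 64.7 TPM, and E14Tg2a from 54.2 to 63.8. On day 8 E14Tg2a had 311, 215 and 278 TPM, ΔK9.1 319, 299 and 275 and ΔK9.2 327, 366 and 316. The order of the means was then turned, with a day 8 difference of 0.25 (SE 0.18, adjusted p = 0.352) that did not pass.

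From day 0 to day 8 *Id1* changed by 2.01 (SE 0.20, adjusted p = 7.74e-09) for E14Tg2a, 3.00 (SE 0.20, adjusted p = 3.49e-11) for ΔK9.1 and 3.04 (SE 0.20, adjusted p = 1.45e-11) for ΔK9.2. The rise in the clones exceeded that in E14Tg2a by 1.02 (SE 0.25, adjusted p = 0.0170), in a comparison that called 1.35% of all tested genes in this direction. Without E14Tg2a replicate 2 of day 0 or of day 8 this was 0.93 and 0.87 (adjusted p = 0.0605 and 0.0941). The differences on days 4 and 6, -0.46 and -0.54, did not pass (adjusted p = 0.181 and 0.175), but did without ΔK9.2 replicate 3 on day 4 (-0.61, adjusted p = 0.0336) and without ΔK9.1 replicate 2 on day 6 (-0.77, adjusted p = 0.0242). Without ΔK9.1 replicate 3 the day 6 difference was -0.32 and did not pass.

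*Id3*, whose product pairs with the same E proteins, had the steepest rise of the ID genes. E14Tg2a libraries went from 17.2, 12.3 and 9.29 TPM on day 0 to 18.9, 21.8 and 24.7 at day 4, 163 and 132 at day 6 and 241, 215 and 236 at day 8. ΔK9.1 had 16.6, 17.4 and 9.31, then 107 and 62.0, and lastly 202, 214 and 147 TPM on days 4, 6 and 8. ΔK9.2 had 8.51, 12.4 and 18.1, then 97.2 and 99.9, and lastly 159, 206 and 206 TPM. Every clone library was below every E14Tg2a library on days 4, 6 and 8, but the differences of -0.68, -0.71 and -0.30 did not pass (adjusted p = 0.157, 0.213 and 0.439). Against day 0 the day 8 rise was 4.09 (SE 0.28, adjusted p = 1.68e-11) for E14Tg2a, 3.81 for ΔK9.1 and 3.87 for ΔK9.2.

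*Id2*, known for its role in lymphoid and mammary cells, was called higher than on day 0 on day 8 in all 3 lines and on day 6 in E14Tg2a and ΔK9.2. E14Tg2a had 12, 11.4 and 12 TPM on day 0, 33.4 and 21.4 at day 6 and 62.7, 85.6 and 78.6 at day 8. On day 0 ΔK9.1 had 9.74, 11.2 and 12.3 TPM and ΔK9.2 5.50, 6.89 and 9.71, the latter all below E14Tg2a in a difference that was not called (-0.64, SE 0.18, adjusted p = 0.250). On day 8 ΔK9.1 had 96.7, 89.8 and 54.3 TPM and ΔK9.2 46.1, 101 and 87.1, so that 2 clone libraries were below all E14Tg2a libraries and 4 above them. The day 8 difference between clones and E14Tg2a was 0.018 (SE 0.23, adjusted p = 0.978). Rises over day 0 on day 8 were 2.57 (SE 0.27, adjusted p = 1.35e-08), 2.71 and 3.20 in E14Tg2a, ΔK9.1 and ΔK9.2. In E14Tg2a the day 6 rise of 1.12 was 0.81 without replicate 2 (adjusted p = 0.119).

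*Id4*, known from neural progenitors, stayed between 0.888 and 4.52 TPM over the 33 libraries and was called on no day against day 0 in any line. On day 4 E14Tg2a had 1.62, 1.88 and 1.5 TPM, ΔK9.1 had 4.52, 3.37 and 3.28 and ΔK9.2 had 2.78, 2.70 and 2.57. All clone libraries were above all E14Tg2a libraries on days 4 and 6, and the differences were 0.64 (SE 0.18, adjusted p = 0.0577) and 0.54 (SE 0.23, adjusted p = 0.198). The day 4 difference passed after median ratio rescaling (0.72, adjusted p = 0.0367) and with the replicate block (adjusted p = 0.0326). In ΔK9.1 alone it was higher on day 0 by 0.71 (SE 0.21, adjusted p = 0.0452) and on day 4 by 0.82 (SE 0.21, adjusted p = 0.0334), where 3.1% of all tested genes were called. Leaving out any 1 of the 6 libraries ended the day 4 call (0.70 to 0.88, adjusted p 0.0520 to 0.147). The day 0 call ended without any 1 of them except E14Tg2a replicate 1 (0.65 to 0.78, adjusted p 0.0793 to 0.130), and also with rescaling or a pseudocount of 0.1 TPM (adjusted p = 0.0621 and 0.0523).

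As a class, the 4 ID genes changed in composition as well as in level in E14Tg2a. Their summed TPM in E14Tg2a was 92.0 ± 10.5 on day 0 and 576 ± 51.8 on day 8 (SD, n = 3 each). *Id1* made up 71.2% ± 3.22 of it on day 0 and 46.3% ± 4.43 on day 8, and *Id3* 13.9% ± 3.23 and 40.1% ± 1.27. In the clones the mean *Id1* share moved less. In ΔK9.1 it was 57.3% ± 1.74 on day 0 and 52.8% ± 4.10 on day 8. In ΔK9.2 it was 65.1% ± 6.27 and 55.7% ± 5.02 on these days, and the libraries of both days overlapped in each clone. The *Id3* share went from 19.6% ± 3.26 to 32.8% ± 2.39 for ΔK9.1 and from 19.8% ± 4.37 to 31.4% ± 2.01 for ΔK9.2. These shares were not tested between lines. On day 8 the ID sum was 568 ± 76.6 for ΔK9.1 and 607 ± 71.6 for ΔK9.2. Both means lay within the E14Tg2a range of 518 to 616 TPM. The libraries ran wider, from 480 to 619 for ΔK9.1 and from 533 to 675 for ΔK9.2. The ligand sum on day 8 was 155 ± 12.7 TPM for E14Tg2a, 99.9 ± 41.1 for ΔK9.1 and 127 ± 15.5 for ΔK9.2. No clone library reached the lowest E14Tg2a ligand sum.

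**Figure D2:**
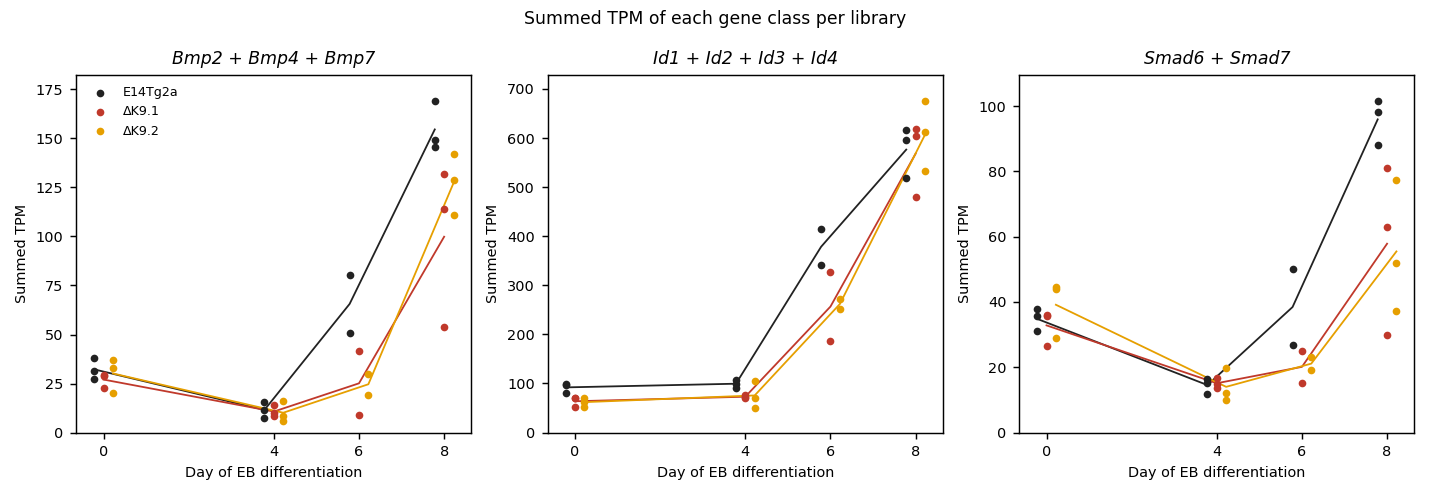
Summed TPM (linear axis from 0) of the 3 ligands, the 4 ID genes and the 2 inhibitory SMAD genes by day, 1 point per library and lines through the means of E14Tg2a (black), ΔK9.1 (red) and ΔK9.2 (orange). On day 8 the ligand and inhibitory SMAD sums of every clone library lie below all E14Tg2a libraries, while the ID sums of the 3 lines overlap.

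*Smad6*, whose product competes in SMAD1 and SMAD5 signalling, had higher values in the clones on day 0 and lower ones in late EBs. On day 0 E14Tg2a had 3.23, 2.78 and 2.39 TPM, ΔK9.1 had 8.06, 7.48 and 6.48 and ΔK9.2 had 3.72, 4.30 and 4.45. All clone libraries were above all E14Tg2a libraries, by 1.14 (SE 0.15, adjusted p = 0.00299) for ΔK9.1 and 0.44 (SE 0.15, adjusted p = 0.364) for ΔK9.2, of which only ΔK9.1 passed. On day 6 E14Tg2a had 31.0 and 16.3 TPM, ΔK9.1 9.73 and 5.0 and ΔK9.2 7.08 and 8.62. On day 8 E14Tg2a had 72.0, 66.2 and 63.9 TPM, ΔK9.1 41.4, 55.4 and 14.2 and ΔK9.2 34.4, 47.4 and 22.7. Every clone library was below every E14Tg2a library on both days, and the lowest on day 8 was ΔK9.1 replicate 3.

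Clones against E14Tg2a, *Smad6* differed by -1.48 (SE 0.34, adjusted p = 0.0111) on day 6 and by -1.02 (SE 0.27, adjusted p = 0.0103) on day 8. The day 6 call was lost without E14Tg2a replicate 2 (-1.04, adjusted p = 0.412) or ΔK9.1 replicate 3 (-1.27, adjusted p = 0.0744), and the day 8 call without E14Tg2a replicate 2 (-1.03, adjusted p = 0.0534). Without ΔK9.1 replicate 3 the day 8 difference was -0.74 (adjusted p = 0.0153), and that of ΔK9.1 alone went from -1.04 to -0.48 (adjusted p = 0.263), where 11.3% of all tested genes were called for ΔK9.1 alone. Against day 0, *Smad6* had risen by 2.64 on day 6 in E14Tg2a (adjusted p = 2.07e-06), while the values were -0.051 for ΔK9.1 and 0.78 for ΔK9.2 (adjusted p = 0.944 and 0.0844). By day 8 it had risen in all 3, by 4.17 (SE 0.32, adjusted p = 6.96e-11), 1.99 (SE 0.32, adjusted p = 1.16e-05) and 2.74 (SE 0.32, adjusted p = 9.48e-08).

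The change of *Smad6* from day 0 was smaller in the clones than in E14Tg2a: clones minus E14Tg2a it was -2.27 (SE 0.43, adjusted p = 0.0288) to day 6 and -1.81 (SE 0.39, adjusted p = 0.00870) to day 8. These comparisons called 0.306% and 6.3% of all tested genes. When each library was left out in turn, the counts over all genes ran from 1 to 198 on day 6 (50 with all libraries). On day 8 they ran from 248 to 1611 (1029 with all libraries). The day 8 difference passed without each of the libraries in turn. The day 6 difference was lost without E14Tg2a replicate 2 or 3 of day 0, ΔK9.1 replicate 1 of day 0, E14Tg2a replicate 2 of day 6, ΔK9.1 replicate 3 of day 6 or ΔK9.2 replicate 2 of day 6 (-2.27 to -1.83, adjusted p 0.0506 to 0.316). *Smad6* and *Id1* were thus the 2 of the 10 genes with a called difference in their change to day 8; on day 4 none was called (limma; *Bmp2* at an unadjusted p below 0.05, and 0.0184% of all tested genes called).

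*Smad7* (chr18:75367529-75395935), an inhibitor of both BMP and TGFβ receptors, began higher than *Smad6* and fell by day 4. E14Tg2a had 32.4, 35.0 and 28.6 TPM on day 0, 12.1, 13.3 and 9.64 at day 4, 19.0 and 10.6 at day 6 and 29.6, 32 and 24.2 at day 8. ΔK9.1 had 27.7, 28.6 and 20.1, then 12.2, 9.71 and 11.5, then 15.4 and 10.2, and lastly 21.5, 25.5 and 15.6 TPM. ΔK9.2 had 40.9, 39.7 and 24.4, then 16.4, 8.28 and 6.89, then 16.1 and 10.4, and lastly 17.5, 30.0 and 14.5 TPM. Every line was lowest around days 4 and 6, and the clone and E14Tg2a libraries overlapped on all days. The clones differed from E14Tg2a on day 8 by -0.48 (SE 0.25, adjusted p = 0.180), and the clone library was the lower one in 6 of 6 pairs with the same number. With the replicate block this difference passed (adjusted p = 0.0389). The day 4 fall was -1.39 (SE 0.28, adjusted p = 7.13e-04) for E14Tg2a, -1.12 (SE 0.28, adjusted p = 0.00459) for ΔK9.1 and -1.69 (SE 0.28, adjusted p = 7.33e-05) for ΔK9.2. In ΔK9.1 it was -0.86 after median ratio rescaling, short of the fold threshold. On day 6 *Smad7* was still below day 0, where 8.69% of all tested genes were lower for E14Tg2a, 7.9% for ΔK9.1 and 10.5% for ΔK9.2. The values were -1.11 (SE 0.32, adjusted p = 0.00676) in E14Tg2a, which was -0.72 without replicate 3 (adjusted p = 0.171), and -1.33 (SE 0.32, adjusted p = 0.00156) in ΔK9.2, which was -1.04 without replicate 3 (adjusted p = 0.0542). In ΔK9.1 it was -0.96 (SE 0.32, adjusted p = 0.0227), short of the fold threshold, and it was called there with a pseudocount of 0.1 TPM, without day 0 replicate 3 or without day 6 replicate 2.

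*Msx2*, a homeobox target of BMP in limb and skull, had the largest rise of the 10 genes. E14Tg2a had 0.869, 0.551 and 0.851 TPM on day 4, 47.0 and 25.4 at day 6 and 79.9, 69.1 and 103 at day 8. ΔK9.1 had 0.391, 1.05 and 0.537, then 18.8 and 2.78, and lastly 70.7, 68.4 and 31.8 TPM. ΔK9.2 had 0.756, 0.324 and 0.302, then 12.5 and 11.9, and lastly 67.7, 105 and 50.7 TPM. All clone libraries were below both E14Tg2a libraries on day 6, and the lines overlapped on day 8. Rises to day 8 were 5.68 (SE 0.39, adjusted p = 1.57e-11) for E14Tg2a, 4.87 for ΔK9.1 and 5.52 for ΔK9.2.

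Clones against E14Tg2a, *Msx2* differed by -1.73 (SE 0.42, adjusted p = 0.0166) on day 6 and by -0.42 (SE 0.34, adjusted p = 0.432) on day 8, of which day 6 passed. The day 8 value ran from -0.56 to -0.23 when each library was left out in turn. The day 6 value was -1.30 without E14Tg2a replicate 2 (adjusted p = 0.416) and -1.14 without ΔK9.1 replicate 3 (adjusted p = 0.0869). For ΔK9.1 alone, the day 6 differences from E14Tg2a of *Msx2* and *Bmp2*, -2.04 and -1.65, were -0.85 and -0.81 without its replicate 3 and no longer called (adjusted p = 0.776 and 0.715), where 3.06% of all tested genes were called with it. In ΔK9.1 the day 6 rises of *Msx2* and *Bmp2* over day 0, 2.21 and 1.55, were 1.01 and 0.71 without replicate 2 (adjusted p = 0.0914 and 0.179).

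**Figure D3:**
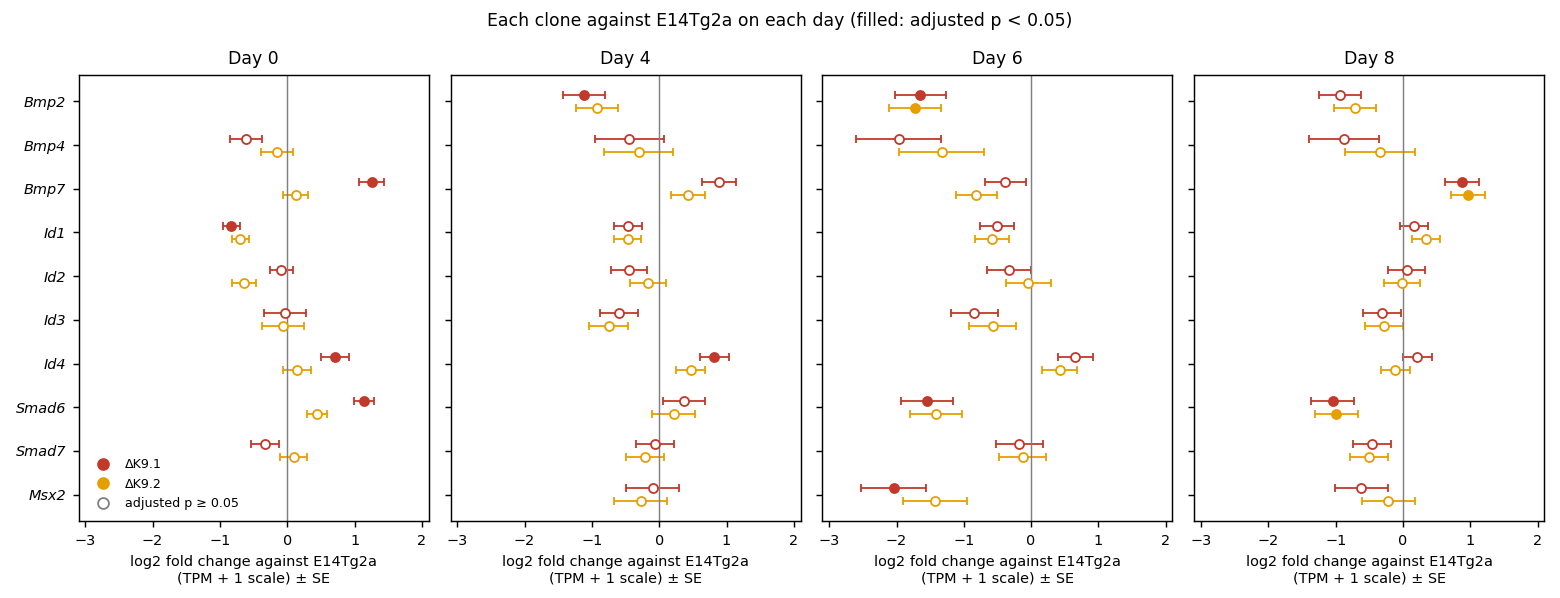
Log2 fold change of each clone against E14Tg2a on the TPM + 1 scale, 1 panel per day, with standard errors; filled points have an adjusted p below 0.05 (red ΔK9.1, orange ΔK9.2). Bmp2 and Smad6 lie left of 0 in both clones on days 6 and 8, Bmp7 lies right of 0 in both on day 8, and Bmp2 and Msx2 have no day 0 value because they were not tested there.

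**Figure D4:**
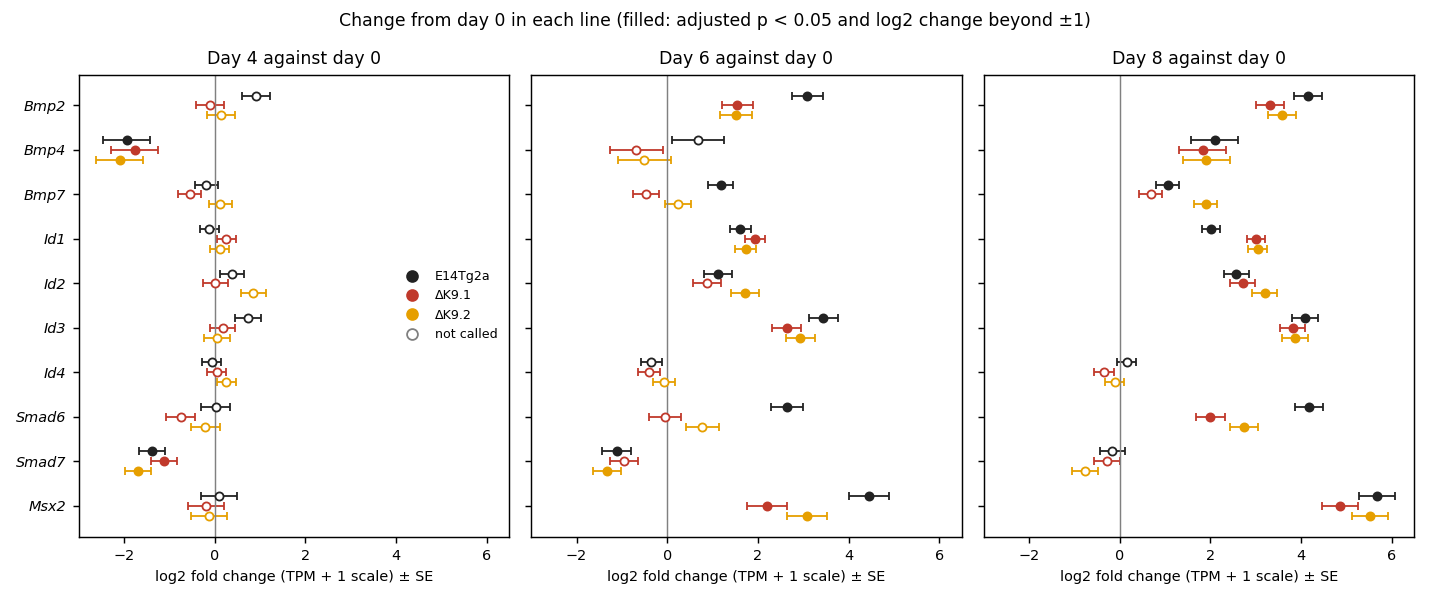
Log2 fold change against day 0 in each line on the TPM + 1 scale, 1 panel per day, with standard errors; filled points are called (black E14Tg2a, red ΔK9.1, orange ΔK9.2). Smad6 on day 6 is at 2.64 for E14Tg2a, -0.051 for ΔK9.1 and 0.78 for ΔK9.2, and Bmp4 and Smad7 lie left of 0 in all 3 lines on day 4.

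All clone libraries were above all E14Tg2a libraries for 1 of the 8 tested genes on day 0 (*Smad6*), 2 of 10 at day 4 (*Bmp7* and *Id4*), 1 at day 6 (*Id4*) and none at day 8. The same held for 5.7%, 1.63%, 12.8% and 5.44% of all tested genes. They were below all E14Tg2a libraries for 1 gene on day 0 (*Id1*), 1 at day 4 (*Id3*), 5 at day 6 (*Bmp2*, *Bmp4*, *Id3*, *Smad6* and *Msx2*) and 3 at day 8 (*Bmp2*, *Id3* and *Smad6*), against 2.95%, 5.95%, 19.6% and 7.99% of all tested genes. None of the 10 genes was called between ΔK9.1 and ΔK9.2 on days 4, 6 and 8 (limma), where 0%, 0.00612% and 0% of all tested genes were. At an unadjusted p below 0.05, 0, 0 and 0 of the 10 passed, and 833, 693 and 990 of 16336 genes.

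Some marker lists of other cell types also differed between the clones and E14Tg2a. On day 6 the summed level of 10 mesoderm markers ran from 523 to 556 TPM for E14Tg2a, 66.5 to 497 for ΔK9.1 and 387 to 425 for ΔK9.2, and 3 of the 10 were lower in the clones. On day 8 the sum of 11 extra-embryonic endoderm markers ran from 408 to 542 TPM for E14Tg2a, 47.0 to 185 for ΔK9.1 and 75.6 to 95.8 for ΔK9.2. Of these 11, the clones were lower in 7 on day 4, 3 at day 6 and 7 at day 8. Calls in either direction made up 2.85%, 3.83% and 19.7% of all tested genes on those days. None of the 11 was at 0 in every library of a group on days 4, 6 or 8. On day 6 the mesoderm and endoderm sums were lower, and the pluripotency and neural sums higher, in every clone library than in E14Tg2a. Only the trophoblast sums overlapped. On that day 12.8% of all tested genes were above, and 19.6% below, all E14Tg2a libraries in every clone library. On day 8 the endoderm and pluripotency sums did not overlap between E14Tg2a and the clones, and the other sums did.

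The remaining marker lists differed as follows. On day 8 the sum of 8 pluripotency markers ran from 378 to 476 TPM for E14Tg2a, 698 to 1504 for ΔK9.1 and 847 to 1248 for ΔK9.2; 7 of the 8 were higher in the clones and 1 was lower. The sum of 5 trophoblast markers ran from 664 to 731 TPM for E14Tg2a, 136 to 575 for ΔK9.1 and 285 to 665 for ΔK9.2, with 1 lower; the list shares *Hand1* with the BMP-induced genes. Of 7 neural markers 2 were lower on day 8, and of the mesoderm markers 3 were higher and 3 lower. Of all tested genes, 7.52% were called higher and 12.2% lower in the clones on that day. The lowest mesoderm and trophoblast sums on days 6 and 8 were in ΔK9.1 replicate 3. On both days this library also had the lowest *Bmp2*, *Bmp4*, *Bmp7*, *Id1*, *Id2*, *Id3*, *Smad6*, *Smad7* and *Msx2* of its group. Its *Id4* and its pluripotency sum were the highest of its group on these days. The part of these cell types in the differences of *Bmp2*, *Smad6*, *Msx2* and *Bmp7* was not tested.

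The rest of the pathway was described with 6 lists holding 65 further genes, of which 51 were in the table. Day 8 calls between clones and E14Tg2a were made for 7.52% of all tested genes in the higher and 12.2% in the lower direction. Of the 5 other ligands in the table, 2 were lower and 1 higher. *Bmp5*, a BMP of the same subgroup as *Bmp7*, was 16.0 ± 4.44 TPM for E14Tg2a, 6.15 ± 4.39 TPM for ΔK9.1 and 3.74 ± 0.845 TPM for ΔK9.2, a difference of -1.62 (SE 0.27, adjusted p = 1.59e-04). *Gdf6*, with a low mean of 0.81 TPM over the 33 libraries, differed by -1.15 (SE 0.15, adjusted p = 1.47e-05). *Gdf3*, a relative of Nodal known from pluripotent cells, was higher by 1.09 (SE 0.21, adjusted p = 5.82e-04).

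Of the 12 receptors and coreceptors, 3 were lower and 2 higher. The type II receptor gene *Bmpr2* was 13.2 ± 3.81 TPM for E14Tg2a, 8.33 ± 2.97 TPM for ΔK9.1 and 6.66 ± 1.23 TPM for ΔK9.2, a difference of -0.74 (SE 0.17, adjusted p = 0.00265). *Tgfbr3*, the coreceptor betaglycan, differed by -1.63 (SE 0.28, adjusted p = 2.73e-04) and *Acvrl1*, the endothelial type I receptor ALK1, by -1.28 (SE 0.34, adjusted p = 0.00946). The coreceptor gene *Rgmb* was higher by 0.64 (SE 0.20, adjusted p = 0.0236), and the fifth called gene, *Acvr2b*, was also higher.

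Of the 12 secreted antagonists and modulators described from the table, 2 were lower and none higher. They were *Bmp1*, which despite its name is a protease that cleaves the antagonist chordin (-1.68, SE 0.27, adjusted p = 1.01e-04), and the antagonist gene *Nbl1* (-0.68, SE 0.22, adjusted p = 0.0276). *Bmp1* lies at chr14:70474558-70520234, inside the stretch of chromosome 14 in which 169 of 173 genes were lower in both clones on day 8. Of the 10 transducers and their regulators, *Smad9* (-0.99, SE 0.20, adjusted p = 0.00115) and the ubiquitin ligase gene *Smurf1* (-0.50, SE 0.12, adjusted p = 0.00525) were lower and none was higher. *Smad9* had a low mean of 0.63 TPM over the 33 libraries.

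Of 9 other genes often induced by BMP, 2 were lower on day 8 and none higher, with a median of -0.64 against -0.0035 for all genes. The cardiac factor genes *Nkx2-5* and *Tbx2* differed by -1.14 (SE 0.22, adjusted p = 8.04e-04) and -0.99 (SE 0.30, adjusted p = 0.0221). Their means over the 33 libraries were 0.86 and 5.04 TPM. Among the 3 E proteins none was called, nor did any pass at an unadjusted p below 0.05 (limma). *Tcf3* differed by 0.043 (SE 0.091, adjusted p = 0.800) and *Tcf12* by -0.20 (SE 0.21, adjusted p = 0.569). From day 0 to day 8 in E14Tg2a, 8 of the 9 induced genes, 7 of the 12 receptors, 6 of the 12 antagonists, 2 of the 5 other ligands, 2 of the 10 transducers and 1 of the 3 E proteins had risen, and 1 receptor and 1 other ligand had fallen, where 15.9% of all tested genes rose.

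**Figure D5:**
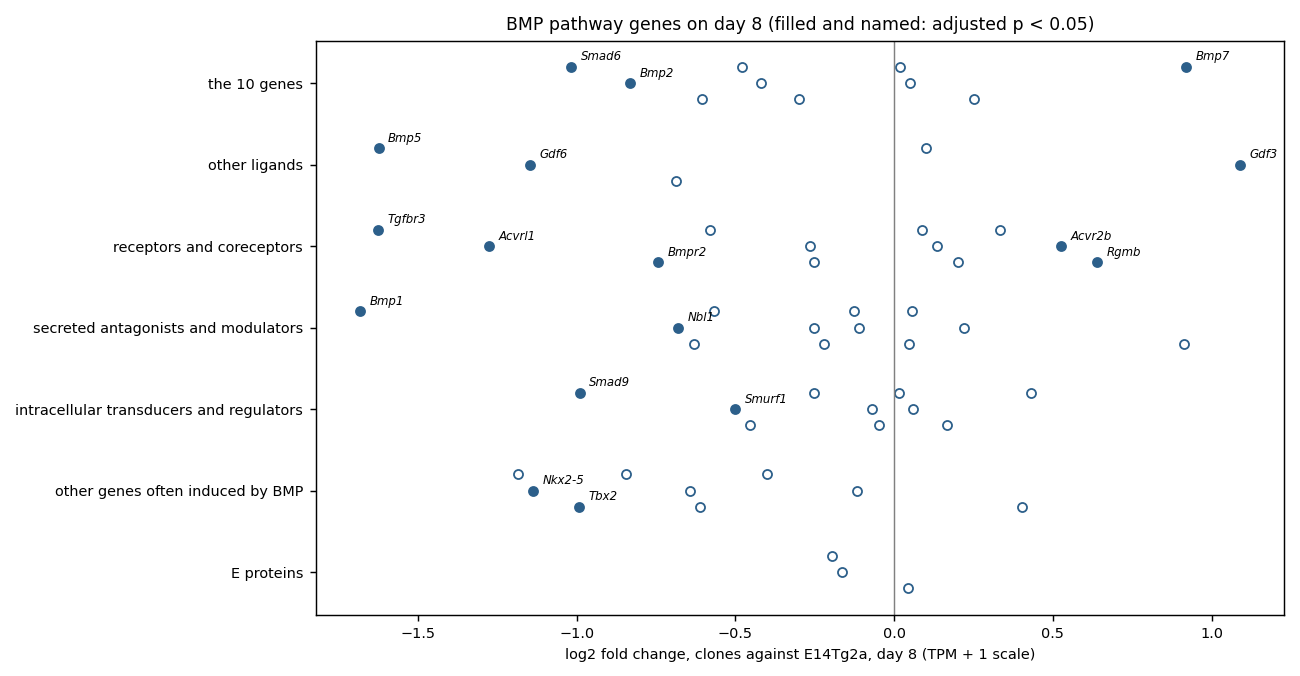
Log2 fold change of the clones against E14Tg2a on day 8 (TPM + 1 scale) for the 10 genes and the 51 further pathway genes, 1 point per gene and 1 row per list; filled and named points have an adjusted p below 0.05. Named genes lie on both sides of 0 for the 10 genes, the other ligands and the receptors, and to the left of 0 for the antagonists, transducers and induced genes.

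The genes whose log2(TPM + 1) was most like that of a member over the 33 libraries are given as a description, since the libraries share the time course. *Msx2* was most like *Hand1* (Pearson r = 0.996), *Tgfb2* (0.993) and *Hoxd9* (0.987). *Bmp2* was most like *Prdm6* (0.989), *Igf2* (0.982) and *Lhfpl2* (0.982). *Smad6* was most like *Bambi* (0.982), a pseudoreceptor gene of the pathway, *Fbn2* (0.977) and *Sdc3* (0.974). *Id3* was most like *Zfp768* (0.987), *Meis3* (0.984) and *Hmga2* (0.981). *Id1* was most like *Id3* (0.969), the only pair of members found this way, with *Hmga2* (0.969) and *Tspan3* (0.968) next. *Id2* was most like *Ier5l* (0.957), *Tmem176a* (0.956) and *B3gnt5* (0.954). The ligands *Bmp4* and *Bmp7* had lower values, with *Siah2* (0.946), *Zfp36l1* (0.945) and *Nab2* (0.930) for *Bmp4*, and *Hsd17b12* (0.907), *Mall* (0.887) and *Nfil3* (0.868) for *Bmp7*.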

How the data were processed

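Strand-specific poly-A RNA-seq of 33 libraries was analysed from the deposited gene table. The authors aligned reads to mm10 with STAR and estimated TPM with RSEM (tools and build per the submitters' processing notes; versions not given in the sources used here). The deposited TPM values keep no read depth. Their methods omitted outliers on the first principal component before TPM were computed, without saying what these were. Further columns hold the authors' own DESeq2 log2 fold changes and false discovery rates and were not used. No column of another sample was present (0), and no 2 libraries held identical values.

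Groups were line and day, from the labels. Pairing by replicate number comes from the methods, which describe parallel assays without numbering them. Deviations from the group means had a median correlation of 0.222 over 33 pairs of libraries with the same number and day (31 above 0.1) and -0.127 over 60 pairs with different numbers, and 33 of 33 libraries correlated best with their own number. log2(TPM + 1) was fitted with limma 3.58.1 (R 4.3.3; empirical Bayes with intensity trend, Benjamini-Hochberg over all tested genes). Day 0 was fitted on its 9 libraries and 14504 genes with a mean of 1 TPM or more in a day 0 group, all else in 1 fit of 33 libraries and 16336 genes. The difference in change from day 0 was an interaction contrast. Calls needed an adjusted p below 0.05. For day 0, each clone also had to differ from E14Tg2a by more than 0.3 (log2) the same way, and for later days against day 0 the change had to exceed 1. Scripts were tested on simulated data with known changes.

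Alternatives were a pseudocount of 0.1 TPM, a 5 TPM minimum, median ratio rescaling, a replicate term, other sets of fitted libraries, no minimum (day 0) and leaving out each library. Comparisons of single clones and of the clones with each other, and the neighbourhood of *Bmp4*, were added after seeing the data.

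The 10 genes and all lists were chosen with earlier results of these data known, and 1 list entry is not reported here. Further genes named were *Nanog*, the genes of each pathway list called on day 8 between clones and E14Tg2a (the 4 with the largest change where there were more), otherwise up to 2 with the highest mean TPM, and the 3 genes with the highest correlation to each member called on day 8 in E14Tg2a. Gene positions are from GENCODE M21 (mm10) and promoter windows from RefSeq (GRCm38.p6).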

Additional observations from a re-analysis of the deposited data

Results flagged for a closer look

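For 2 of the 10 genes, a test of the difference itself found another change from day 0 in the clones than in E14Tg2a. That test called 0.306% of all tested genes to day 6 and 6.3% to day 8. For *Smad6* it was -2.27 (SE 0.43, adjusted p = 0.0288) to day 6 and -1.81 (SE 0.39, adjusted p = 0.00870) to day 8, clones minus E14Tg2a. The day 6 value lost its call without any 1 of 6 libraries, and the day 8 value kept its call without each library in turn. For *Id1* the difference to day 8 was 1.02 (SE 0.25, adjusted p = 0.0170), and it lost its call without E14Tg2a replicate 2 of day 0 or of day 8.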

How the results depend on the processing

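Of 120 values given for the 10 genes, 72 were called. In 706 of their 814 alternatives they kept direction and call, in 108 they lost the call, and none reversed. The uncalled values had 698 alternatives, of which 15 gave a call and 18 another sign. The cause of these changes was not tested. The alternatives were run for the 10 genes and for counts over all genes, not for the other pathway genes or markers.

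Between clones and E14Tg2a, the number of the 10 genes called fell from 3 to 1 on day 6 with a pseudocount of 0.1 TPM, and rose from 1 to 2 on day 4 after median ratio rescaling (*Id4* added). With only the libraries compared it fell to 0, 0 and 1 on days 4, 6 and 8, where 77, 223 and 666 of all genes were called against 465, 626 and 3217. This setting leaves fewer libraries to estimate the spread. Day 4 falls in ΔK9.1 went from 2 genes to 1 after rescaling (*Smad7* lost). The number of all genes called on day 0, 11, was 20 with a 5 TPM minimum, 17 after rescaling and 30 with all 33 libraries fitted. Changes to day 4 numbered 2000, 1503 and 1968 in E14Tg2a, ΔK9.1 and ΔK9.2 with a pseudocount of 0.1 TPM, against 1265, 880 and 1245. Differences in the change to days 4, 6 and 8 numbered 3, 50 and 1029. They were 1 on day 4 and 20 on day 6 with that pseudocount, 1 and 14 with the 5 TPM minimum, and 420 on day 8 with only the libraries compared. Rescaling moved the share of higher calls from 15.7% to 35.7% between clones and E14Tg2a on day 4 and from 21.5% to 36.5% for the difference in change to day 8.

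With the replicate block, the number of the 10 genes called between clones and E14Tg2a was 1 on day 0 and 2 on day 4, and all-gene counts were 145, 816, 1017 and 4088 on days 0, 4, 6 and 8. Those of the difference in change from day 0 were 17, 94 and 1639. Beyond the calls of *Id1*, *Id4*, *Bmp4* and *Smad7* given with their values, the block changed no call among the values recomputed for the 10 genes.

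Leaving out each library in turn, the number of the 10 genes called between clones and E14Tg2a was 0 on day 0 each time and ran from 0 to 1, 0 to 5 and 0 to 3 on days 4, 6 and 8. It ran from 1 to 3 for E14Tg2a and 1 to 2 for ΔK9.1 and 2 to 3 for ΔK9.2 on day 4 against day 0, and from 0 to 4 and 1 to 2 for the difference in change to days 6 and 8. Counts over all genes were lowest without E14Tg2a replicate 3 or ΔK9.2 replicate 3 on day 0 (1 each), without E14Tg2a replicate 3 on day 4 (90) and without its replicate 2 on day 6 (80) and day 8 (1209), and the highest were 135, 581, 1136 and 3698.

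Uncalled values that took another sign had these ranges when each library was left out. Between clones and E14Tg2a they were -0.25 to 0.16 for *Id3* on day 0, -0.74 to 0.059 for *Bmp4* on day 4, -0.49 to 0.13 for *Id2* and -0.54 to 0.24 for *Smad7* on day 6, and -0.11 to 0.19 for *Id2* and -0.067 to 0.20 for *Id4* on day 8. For the difference in change to day 8 they were -0.38 to 0.0068 for *Bmp4* and -0.075 to 0.54 for *Bmp7*, and for *Smad6* in ΔK9.1 on day 6 against day 0 -0.47 to 0.37. Median ratio rescaling turned *Smad6* in ΔK9.1 on day 6 against day 0 to 0.049. TPM carry no depth per library, and the methods give only 1 approximate read number, so no counting error could be computed.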
